A study of Mus musculus with 3 samples.

Results

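Serpins are a family of serine and cysteine protease inhibitors, and their genes were examined here for H3K27ac, a histone H3 mark of active promoters and enhancers, in mouse pancreatic spheroids. The members are the autosomal protein-coding genes of the GRCm38 RefSeq annotation whose symbols begin with Serpina to Serpini, 62 genes of 20665. They lie on 10 chromosomes, in 5 groups of neighbours no more than 500 kb apart and at 7 single positions. All deposited peaks within 20 kb of these gene bodies were used, each counted 1 time: 53 of 37924 autosomal peaks in the post-caerulein list and 53 of 36846 in the untreated list. Both H3K27ac libraries come from three-dimensional epithelial cultures of wild-type C57BL/6J mice. The post-caerulein spheroids were grown from mice given caerulein, which mimics cholecystokinin and provokes acute pancreatitis, and the untreated spheroids from mice that were not. The age and number of the mice and the caerulein schedule are not given in the sources used here. The comparison addresses whether the epithelium keeps altered regulatory regions after pancreatitis. With 1 library per condition, replicate error is unknown and differences are reported without p-values. In bulk cultures a changed share of cells cannot be told apart from changed acetylation per cell.

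A typical serpin presents an exposed reactive loop as bait, and the attacking protease is trapped in a covalent complex after it cleaves the loop. Clade A members such as alpha-1-antitrypsin and clade C and D members (antithrombin, heparin cofactor II) are largely secreted by the liver into plasma. Clade B members act mostly inside cells, where they neutralise elastase, cathepsins or granzymes, and clade E members act on extracellular proteases. Some members inhibit no protease: Serpinh1, also called Hsp47, is a collagen chaperone of the endoplasmic reticulum. In the pancreas, where digestive zymogens can activate early, protease inhibitors guard the tissue against autodigestion.

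The labelled epithelial identity was checked against fixed markers. A start was marked (a peak within 1 kb) in both lists for 6 of 6 ductal genes and for 1 of 6 acinar, 0 of 4 endocrine, 0 of 4 mesenchymal, 1 of 4 immune, 0 of 3 endothelial and 2 of 4 hepatocyte genes. Over all autosomal protein-coding genes this share was 54.2%. The hepatocyte genes with a marked start were Hnf4a and Ttr, which the pancreatic epithelium or islet also uses, whereas Alb and Apoa1 had no peak within 20 kb in either list. Among the ductal genes, Cftr had 19.567 kb covered within 20 kb post-caerulein and 42.947 kb untreated, and Sox9 9.768 and 5.124 kb; their part in the serpin values was not tested. The immune gene was Cd68, and the start of Ptprc, the pan-leukocyte marker, was marked in the post-caerulein list alone. The lists covered 138.1 Mb of the autosomes in the post-caerulein library and 132.2 Mb in the untreated library. The depth of the libraries is unknown, because the lists hold no read counts.

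Most serpin genes had no called H3K27ac peak near them in either condition. For 43 of the 62 genes (69.4%) neither list had a peak within 20 kb, against 26.2% of all autosomal protein-coding genes. A start was marked in both lists for 12 serpin genes (19.4%), against 54.2% of all genes. It was marked in the post-caerulein list alone for 1 gene, Serpinh1, and in the untreated list alone for 0; over all genes these shares were 1.84% and 1.12%. The remaining 6 genes with a peak, Serpinb2, Serpinf1, Serpinf2, Serpinb1b, Serpinb6e and Serpind1, had none at a start in the promoter table. For Serpinb2 and Serpinb1b those starts lie inside the gene body. A peak lay at the left end of these plus-strand genes, in the post-caerulein list alone at Serpinb2 and in both lists at Serpinb1b. For the 9 members with no entry in the promoter table (among them Serpinb13, Serping1, Serpina10, Serpina6, Serpina9, Serpina3k, Serpina3m and Serpinb1a) either end of the gene stood in for the start.

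The marked genes belonged to clades B, E, H and I. In clade B, 12 of 28 genes had a peak within 20 kb and 9 had a marked start in both lists. In clade E the start of Serpine2 was marked in both lists, and in clade I that of Serpini1. In clade A, 0 of 23 genes had a peak. Serpinc1 (antithrombin), Serping1 (the C1 inhibitor of the complement system) and Serpine3 also had none.

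**Figure D1:**
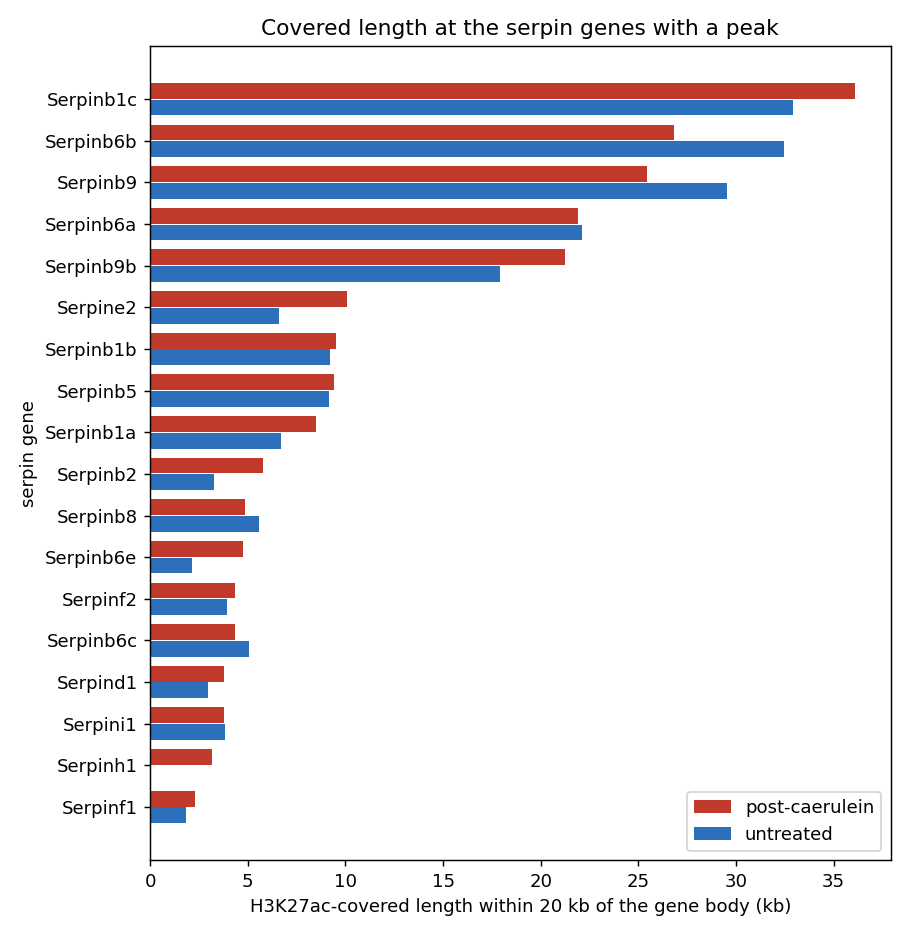
H3K27ac-covered length (x axis, kb) within 20 kb of the serpin genes described here that had a peak (y axis), with the post-caerulein list in red above the untreated list in blue. Of the genes drawn, Serpinb1c has the longest cover in both, 36.106 kb post-caerulein and 32.943 kb untreated, and Serpinh1 has a red bar alone.

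Serpinh1 had the largest ratio of covered length among the 62 genes. Its start lay under a peak of 3183 bp at chr7:99350831-99354013 in the post-caerulein list. In the untreated list no peak lay within 20 kb of the gene, and the nearest untreated peak was 26404 bp from that region. The score of the post-caerulein peak, 1368.54, stood at percentile 68.39 of its own list. Covered length was 3.183 kb post-caerulein and 0 kb untreated. Serpinh1 was the 1 serpin gene whose covered length, with 1 kb added to each value, was at least 2 times larger in the post-caerulein list; this held for 2.84% of all genes. The corresponding count for the untreated list was 0 serpin genes, against 2.42% of all genes. With a fold of 1.5 the post-caerulein count was 3 (Serpinh1, Serpinb2 and Serpinb6e), against 6.02% of all genes, and the untreated count 0, against 5.31%. With a window of 50 kb, which takes in more distant peaks, the log2 ratio at Serpinh1 was 0.39 instead of 2.06. Cover near the 4 mesenchymal markers summed to 15.928 kb post-caerulein and 8.503 kb untreated. Pdgfrb, a pericyte and fibroblast receptor, had 8.602 kb post-caerulein and 2.737 kb untreated, Col1a1 had 7.326 kb post-caerulein and 5.766 kb untreated, and Pdgfra and Vim had no peak in either list. Near the 3 endothelial markers the sum was 12.721 kb post-caerulein and 11.087 kb untreated, of which Kdr had 1.08 kb post-caerulein and 0 kb untreated, and Cdh5 had no peak. The part of such cells in the Serpinh1 difference was not tested.

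The stretch of 250 bases before the Serpinh1 start (chr7:99353240-99353489, minus strand, RefSeq, GRCm38.p6) is shown because it lies under that peak, and the same stretch of Serpine2 (chr1:79858666-79858915, minus strand) because the peak over it differed in width. Capitals mark a GC box (GGGCGG) or a SMAD motif (CAGACA), searched on both strands, and neighbouring matches may overlap.
Serpinh1: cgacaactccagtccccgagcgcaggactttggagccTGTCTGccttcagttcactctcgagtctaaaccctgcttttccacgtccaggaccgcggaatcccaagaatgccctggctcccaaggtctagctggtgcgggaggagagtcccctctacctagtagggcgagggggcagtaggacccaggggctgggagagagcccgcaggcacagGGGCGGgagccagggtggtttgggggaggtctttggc
Serpine2: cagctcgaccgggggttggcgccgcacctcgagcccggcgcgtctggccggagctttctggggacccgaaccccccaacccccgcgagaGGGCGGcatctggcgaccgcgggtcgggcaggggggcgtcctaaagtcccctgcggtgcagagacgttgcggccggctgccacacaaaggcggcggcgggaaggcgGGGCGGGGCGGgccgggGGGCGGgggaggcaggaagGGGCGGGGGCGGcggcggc
Both stretches are rich in G and C, 63.6% with 11 CpG in Serpinh1 and 78.8% with 34 CpG in Serpine2. A GC box was present in 43.4% of all 20085 such stretches and a SMAD motif in 14.8%. These are matches of letters and do not show binding.

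Serpine2, or protease nexin 1, inhibits thrombin and urokinase (chr1:79794317-79858665). All 3 of its peaks were shared by the lists, and the pair within its body and at its start differed in width. The peak over the start was 1929 bp wide post-caerulein and 1122 bp wide untreated, a ratio of 1.72. The peak inside the gene was 6256 bp wide post-caerulein and 3664 bp wide untreated, a ratio of 1.71. The third, at the starts of Mrpl44 and Wdfy1, was 1884 bp wide post-caerulein and 1807 bp wide untreated. Covered length was 10.069 kb post-caerulein and 6.593 kb untreated, a log2 ratio of 0.54. The log2 ratio at Serpine2 was thus below a 2-fold difference. Serpine3, of the same clade, was 66608 bp from the nearest post-caerulein peak and 66731 bp from the nearest untreated peak.

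**Figure D2:**
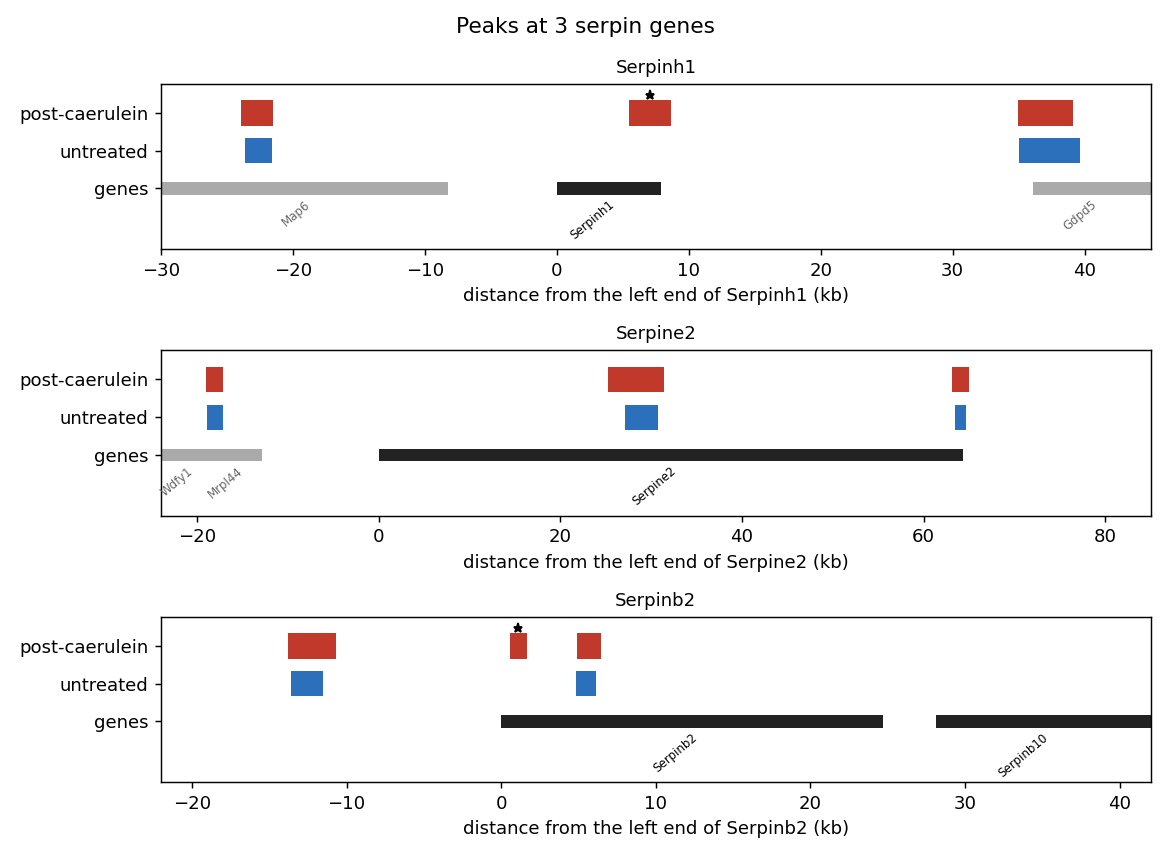
Peaks of the post-caerulein list (red) and the untreated list (blue) at Serpinh1, Serpine2 and Serpinb2, as distance from the left end of each gene (x axis, kb), with serpin genes in black, other genes in grey and a star over peaks with no overlap in the other list. Serpinh1 has a starred post-caerulein peak at its start, the peaks of Serpine2 at its start and in its body are wider post-caerulein, and Serpinb2 has a starred post-caerulein peak.

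The largest block of marked serpin chromatin was the chromosome 13 group of 16 clade B genes. From Serpinb1a to Serpinb6a (chr13:32842092-34002794) the lists covered 149.092 kb post-caerulein and 147.084 kb untreated, 12.8% and 12.7% of the interval. It held 31 of the 53 post-caerulein serpin peaks and 32 of the 53 untreated ones. Of its genes, 9 had a peak and 7 had a marked start in both lists. These were Serpinb1a, Serpinb1c, Serpinb6b, Serpinb9, Serpinb9b, Serpinb6c and Serpinb6a. Between the left and right marked parts lay Serpinb9c, Serpinb9d, Serpinb9e, Serpinb9f, Serpinb9h and Serpinb9g, in an interval of 451.5 kb without a post-caerulein peak and 451.9 kb without an untreated one. Serpinb6d also had no peak within 20 kb.

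Serpinb1a encodes an inhibitor of neutrophil elastase. A single post-caerulein peak of 6921 bp overlapped the gene, where the untreated list had 2 adjoining peaks of 2237 and 4488 bp. A post-caerulein-only peak of 1593 bp lay 11957 bp away. Covered length was 8.514 kb post-caerulein and 6.725 kb untreated. The neighbouring Serpinb1c, a copy of that gene, had 8 peaks in each list and 36.106 kb covered post-caerulein against 32.943 kb untreated. The widest peak that touches the gene was 9816 bp post-caerulein and 9780 bp untreated, and the peak at its start was 8238 bp post-caerulein and 8177 bp untreated. Its window also takes in peaks over Serpinb6b, described below. Its list-only peaks were narrow. The post-caerulein-only peak inside the gene (1478 bp) lay 101 bp from an untreated peak, and the untreated-only peak (1280 bp) 1012 bp from a post-caerulein peak.

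Of the genes of this block with a peak, Serpinb6b, Serpinb9, Serpinb6c and Serpinb6a had longer cover in the untreated list. Serpinb6b had 26.825 kb post-caerulein and 32.463 kb untreated. Its start lay under a post-caerulein peak of 16391 bp and an untreated peak of 11170 bp. The post-caerulein peak also spanned a second untreated peak, of 4618 bp, over the left end of the gene. Towards its right end a peak was 1218 bp wide post-caerulein and 4050 bp wide untreated, a ratio of 0.30. An adjoining peak was 1440 bp wide post-caerulein and 2498 bp wide untreated. The untreated cover was thus broader at the right end of the gene and beyond it, and not at its start. The window of Serpinb6b also takes in an untreated-only peak of 1134 bp and a peak next to Serpinb9. That peak was 1501 bp wide post-caerulein and 4752 bp wide untreated. Both lie in the window of Serpinb9 too, so the differences at Serpinb6b and Serpinb9 are not independent.

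Serpinb9 encodes an inhibitor of granzyme B, the cytotoxic lymphocyte protease. It had 25.445 kb covered post-caerulein and 29.563 kb untreated. A peak 489 bp from the gene body was 1501 bp wide post-caerulein (chr13:32995072-32996572). Its untreated counterpart, which spanned the left end of this plus-strand gene, was 4752 bp wide (chr13:32993084-32997835), giving a ratio of 0.32. Around the start in the promoter table, which lies inside the gene, the order was the other way. There 1 post-caerulein peak of 10411 bp stood against 3 untreated peaks of 1450, 6308 and 1064 bp that summed to 8822 bp. Serpinb9b, the next copy, had 21.224 kb post-caerulein and 17.931 kb untreated, with a post-caerulein-only peak of 2284 bp located 1224 bp outside it. Serpinb1b, another copy of the elastase inhibitor gene, had 4 shared peaks and none at its start in the promoter table. One of them lay over the left end of the gene, 3218 bp wide post-caerulein and 3145 bp wide untreated. Covered length at Serpinb1b was 9.537 kb post-caerulein and 9.198 kb untreated.

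The right part of the block held Serpinb6e, Serpinb6c and Serpinb6a. Serpinb6a, an inhibitor of cathepsin G, had 6 peaks in each list, all shared, and 21.927 kb covered post-caerulein against 22.128 kb untreated. Both of its annotated starts were marked in both lists. One start shares its peak with the start of Ripk1, which encodes a kinase of cell death signalling, and another of its peaks with the start of Nqo2. Serpinb6c had a start peak of 1443 bp post-caerulein and 2348 bp untreated, a ratio of 0.61. Serpinb6e had a post-caerulein-only peak of 1849 bp inside the gene, and 4.779 kb covered post-caerulein against 2.13 kb untreated. With the 1 kb added, that was a log2 ratio of 0.88.

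**Figure D3:**
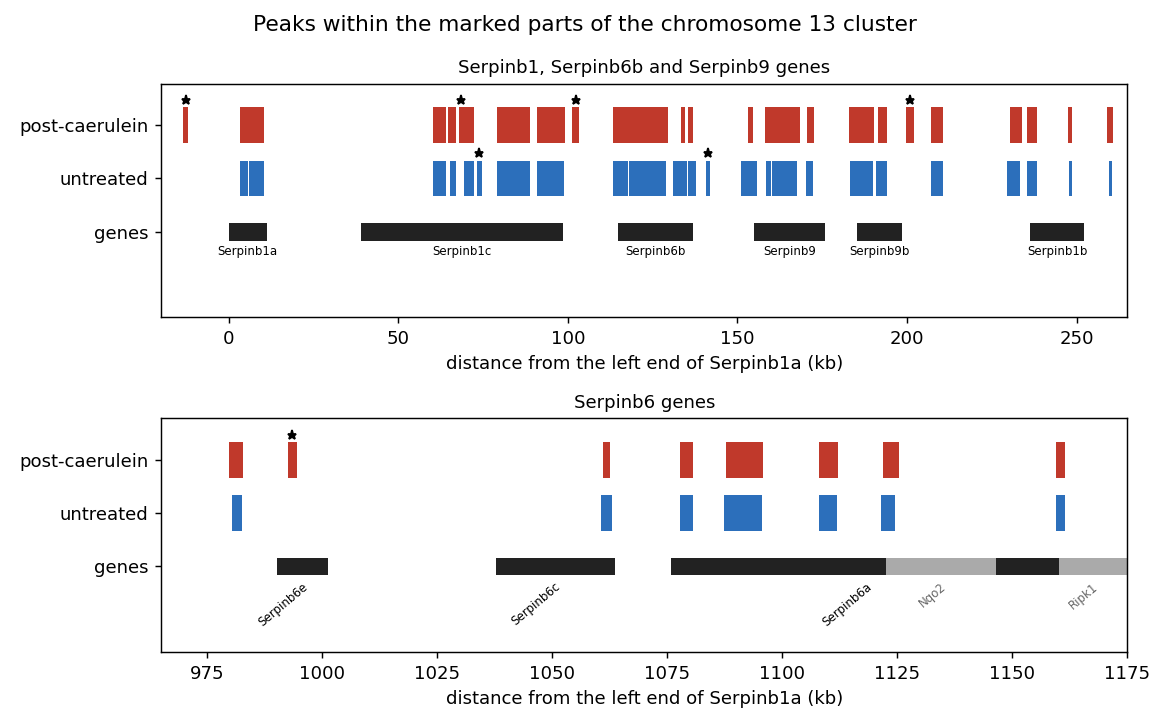
Peaks of the post-caerulein list (red) and the untreated list (blue) over the marked parts of the chromosome 13 serpin group, as distance from the left end of Serpinb1a (x axis, kb), with serpin genes in black, other genes in grey and a star over peaks with no overlap in the other list. The main peaks stand in the same places in both lists, and the starred peaks are narrow, 1134 to 2284 bp.

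In the chromosome 1 group of 12 clade B genes, called peaks lay near Serpinb5 at the left end, near Serpinb2, and near Serpinb8 at the right end. Serpinb5, or maspin, an epithelial serpin without known protease inhibition, had 4 shared peaks, and 9.421 kb was covered post-caerulein against 9.169 kb untreated. Its start peak was 2860 bp wide post-caerulein and 3241 bp wide untreated. At the other end of the group, Serpinb8 had 1 shared peak over its start, 4864 bp wide post-caerulein and 5565 bp wide untreated. Between Serpinb5 and a region next to Serpinb2 no post-caerulein peak lay for 602.7 kb and no untreated peak for 603.2 kb, an interval that holds 8 serpin genes.

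Serpinb2, plasminogen activator inhibitor 2, had weak cover that was longer in the post-caerulein list. The covered length was 5.809 kb post-caerulein and 3.279 kb untreated, a log2 ratio of 0.67. It had 3 post-caerulein peaks and 2 untreated peaks, none within 1 kb of a start in the promoter table. Those starts lie inside the gene body. The post-caerulein-only peak began 0.564 kb inside the left end of the gene, which is on the plus strand. The peak outside the gene, at 10679 bp post-caerulein and 11524 bp untreated, was 3094 bp wide post-caerulein and 2040 bp wide untreated. The shared peak inside the gene was 1597 bp wide post-caerulein and 1239 bp wide untreated. The post-caerulein-only peak, 1118 bp, had a score of 64.25, at percentile 6.22 of its list, where the lowest score is 50.01.

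The stretches of 250 bases before the starts of Serpinb5 (chr1:106860925-106861174), Serpinb8 (chr1:107589756-107590005) and Serpinb9 (chr13:33004291-33004540), all on the plus strand, are shown as examples of the 2 marked clade B groups. Capitals mark matches on either strand to a GC box, a SMAD motif, the letters of the CCAAT box, or the AP-1 motif. The AP-1 motif was searched as TGANTCA.
Serpinb5: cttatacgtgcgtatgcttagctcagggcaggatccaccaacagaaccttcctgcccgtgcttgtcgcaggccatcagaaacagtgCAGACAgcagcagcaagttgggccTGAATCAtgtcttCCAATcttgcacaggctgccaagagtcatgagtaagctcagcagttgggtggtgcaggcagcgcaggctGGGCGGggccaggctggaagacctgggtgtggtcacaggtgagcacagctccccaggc
Serpinb8: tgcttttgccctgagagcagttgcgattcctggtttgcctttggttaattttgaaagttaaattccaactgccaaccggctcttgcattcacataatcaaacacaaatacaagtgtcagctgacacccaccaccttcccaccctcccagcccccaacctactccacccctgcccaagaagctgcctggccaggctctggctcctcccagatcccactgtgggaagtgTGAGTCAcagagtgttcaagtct
Serpinb9: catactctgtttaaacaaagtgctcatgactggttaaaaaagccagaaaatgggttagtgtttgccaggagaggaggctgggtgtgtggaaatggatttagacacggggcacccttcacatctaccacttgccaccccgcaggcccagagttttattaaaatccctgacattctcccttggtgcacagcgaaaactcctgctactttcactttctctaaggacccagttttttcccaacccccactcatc
The AP-1 letters stood before a start of 7 of 11 genes of the chromosome 1 group that have an entry (Serpinb2, Serpinb5, Serpinb7, Serpinb8, Serpinb10, Serpinb11 and Serpinb12) and of 0 of 15 genes of the chromosome 13 group. In the chromosome 12 group, which had no peak, they stood before 4 of 18 genes (Serpina1a, Serpina1b, Serpina1c and Serpina1d). Of the 61 serpin stretches 12 held them, or 19.7%, against 6.18% of all 20085 stretches. Of these 7 genes, Serpinb5 and Serpinb8 had a marked start. No match says only that these letters are not in this window.

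Other motifs were also searched on both strands. NF-kB was present in 3 of the 61 serpin stretches, before Serpina3g, Serpina3i and Serpina3n, against 1.47% of all stretches. STAT (TTCNNNGAA) was present in 10, or 16.4%, against 6.66%. The TATA box (TATAAA) was present in 15, or 24.6%, against 11.7%. The GC box was present in 7, or 11.5%, against the 43.4% given above. The CCAAT box was present in 19, or 31.1%, against 35.3%. Found in 0 were HNF1 (0.00498% of all stretches), ETS (CCGGAAGT; 3.88%) and the E-box (CACGTG; 6.69%). Neighbouring copies share sequence, so these counts are not independent. HNF1 was searched only as the long, full motif, which almost no stretch of any gene holds (0.00498%). Its count of 0 therefore cannot show whether shorter or looser HNF1 sites are present before serpin genes.

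The start regions of marked serpin genes held few CpG. Over 12 stretches that were marked, the median was 53.2% G and C and 4.5 CpG, against 60.4% and 16 CpG over 11484 marked stretches of all genes. The unmarked serpin stretches (49) had a median of 48% and 2 CpG, and all unmarked stretches (8601) 48.8% and 3 CpG. Among the marked serpin starts CpG ranged from 0 before Serpinb1c to 34 before Serpine2. Serpinb9, with 3 CpG, and Serpinb9b, with 2, lay under peaks of over 6 kb in both lists.

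The 23 clade A genes of chromosome 12 had no H3K27ac peak near them. From Serpina10 to Serpina3n (chr12:103616675-104414334, 797.7 kb) the covered length was 0 kb in both lists. They lay in an interval of 1312.8 kb without a post-caerulein peak and 1265.2 kb without an untreated one. These were the intervals of rank 253 of 37905 post-caerulein and rank 274 of 36827 untreated, counted from the longest; the median interval between neighbouring peaks was 9.68 kb post-caerulein and 10.23 kb untreated. The other genes wholly inside both intervals were Ppp4r4 and Gsc. Genes such as Serpina1a (alpha-1-antitrypsin), Serpina6 (the corticosteroid-binding globulin) and Serpina3n are known for expression in liver, and the last also for induction in inflammation.

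**Figure D4:**
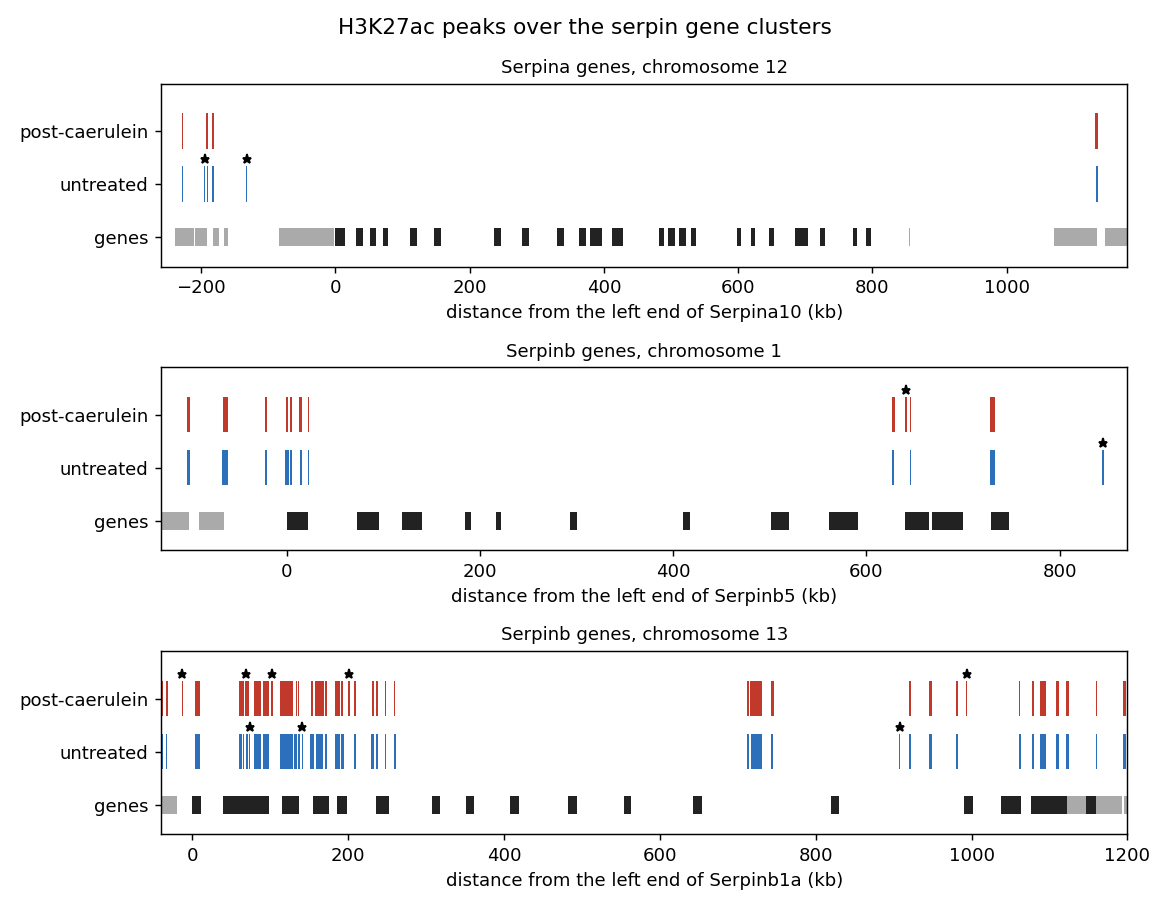
Peaks of the post-caerulein list (red) and the untreated list (blue) over the 3 large serpin groups, as distance from the left end of the first gene of each (x axis, kb), with serpin genes in black, other genes in grey and a star over peaks with no overlap in the other list; peaks narrower than 1.5 kb are drawn 1.5 kb wide. The chromosome 12 genes have no peak, the chromosome 1 genes have peaks near Serpinb5, Serpinb2 and Serpinb8, and the chromosome 13 genes have many.

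Some of the genes without a peak are near copies of each other. Of the 53 members with an entry, 12 had a stretch before the start that was at least 80% identical to that of another serpin gene, and 0 of these 12 were marked, against 11 of the other 41. The closest clade A pair is shown because reads from such copies may not be placed uniquely: Serpina1a (chr12:103863620-103863869) and Serpina1c (chr12:103904951-103905200), both on the minus strand and 91.2% identical, with AP-1 and CCAAT box matches in capitals.
Serpina1a: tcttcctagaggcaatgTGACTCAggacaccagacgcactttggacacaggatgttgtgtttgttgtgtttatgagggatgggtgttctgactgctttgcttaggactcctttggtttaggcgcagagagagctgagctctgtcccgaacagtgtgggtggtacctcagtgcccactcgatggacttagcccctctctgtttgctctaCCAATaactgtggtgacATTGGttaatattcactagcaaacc
Serpina1c: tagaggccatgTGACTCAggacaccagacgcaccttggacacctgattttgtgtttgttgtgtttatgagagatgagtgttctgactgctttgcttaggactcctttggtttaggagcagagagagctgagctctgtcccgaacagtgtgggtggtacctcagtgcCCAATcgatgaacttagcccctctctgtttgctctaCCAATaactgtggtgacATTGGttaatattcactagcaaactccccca
The 12 genes all lie in the long intervals without a peak on chromosomes 1, 12 and 13, so likeness and position cannot be told apart. The part of read placement in the absence of peaks was not tested. Serpinc1, which had no peak within 20 kb, was 30733 bp from the nearest post-caerulein peak and 30598 bp from the nearest untreated peak.

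In clades D, F and I, Serpind1, Serpinf1, Serpinf2 and Serpini1 had peaks within 20 kb and Serpini2 had none. Serpini1, or neuroserpin, an inhibitor of tissue plasminogen activator, shares its start peak with Pdcd10; the peak was 2569 bp wide post-caerulein and 2748 bp wide untreated. The peaks near Serpinf1 (a secreted anti-angiogenic factor) and Serpinf2 (the plasmin inhibitor) lay outside both genes, and a peak near Serpinf2 lay at the start of Wdr81. The nearest, 5280 bp from Serpinf1 post-caerulein and 5504 bp untreated, was 2320 bp wide post-caerulein and 1824 bp wide untreated. Serpind1 (heparin cofactor II) had a peak just past the end of the gene away from its start. It was 73 bp from the gene post-caerulein and 385 bp untreated. It was 3810 bp wide post-caerulein and 2972 bp wide untreated.

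Some peaks lay close to the edge of the 20 kb window. A shared peak just inside the window lay 18111 bp (post-caerulein) and 18374 bp (untreated) from Serpinf2. Just outside it, a peak lay 20344 bp (post-caerulein) and 20056 bp (untreated) from Serpinb5. Among the genes without a peak, Serping1 lay closest to the edge. It was counted without a peak and was 20459 bp from a post-caerulein peak and 20472 bp from an untreated peak. Within their own lists those peaks stood at score percentiles 70.94 post-caerulein and 99.67 untreated. Serpinb10, also counted without a peak, was 21619 bp from a post-caerulein peak and 21997 bp from an untreated peak.

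Most list-only peaks around serpin genes had a score under the median of their list. In the post-caerulein list 7 of the 53 serpin peaks had no overlap in the other list, or 13.2% (exact Clopper-Pearson 95% interval 5.48 to 25.3), against 17.6% of all autosomal peaks. In the untreated list it was 2 of 53, or 3.77% (0.46 to 13), against 14.2%. The intervals cover counting error over peaks and no variation between cultures. They treat peaks as independent, although 31 post-caerulein and 32 untreated peaks of the 53 lie in the chromosome 13 group. Serpin peaks had a median score of 623.69 post-caerulein and 1466.28 untreated, against 527.99 and 687 over all autosomal peaks. The part of peak score in the list-only shares was not tested. A post-caerulein-only peak lay within 20 kb of 7 serpin genes (11.3%), against 21.5% of all genes, and an untreated-only peak within 20 kb of 3 (4.84%), against 20.3%. These shares include the genes without any peak, which were 69.4% of serpin genes and 26.2% of all genes. Among genes with a peak, the post-caerulein-only counts were 7 of 19 serpin genes and 4449 of 15245 genes. The untreated-only counts were 3 of 19 and 4193 of 15245. Of the 7 post-caerulein-only peaks, 5 were in the chromosome 13 group. All but the Serpinh1 peak had a score under the median of their list, and so did the 2 untreated-only peaks. The same share over all autosomal list-only peaks is not given here, so low scores are not shown to be particular to serpin genes.

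Shared peaks near serpin genes differed little in width. Of 42 peaks matched 1 to 1 between the lists, 27 (64.3%) were wider post-caerulein, against 55.6% of 26529 matched autosomal peaks. The median log2 width ratio was 0.05, against 0.03. At least 2 times wider post-caerulein were 0 of the 42, against 2.85% of all matched peaks. At least 2 times wider untreated were 2 of the 42, the peaks at Serpinb6b and Serpinb9 described above, against 2.04%. At Serpinb1a, Serpinb6b and Serpinb9, 1 post-caerulein peak spanned several untreated ones, as given above. Over the 19 genes with a peak, covered length was longer post-caerulein at 13 (68.4%) and longer untreated at 6, against 51.9% longer post-caerulein over 15245 autosomal genes with a peak. The median log2 ratio was 0.13, against 0.01. Neighbouring genes share peaks, so these 19 values are not independent.

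**Figure D5:**
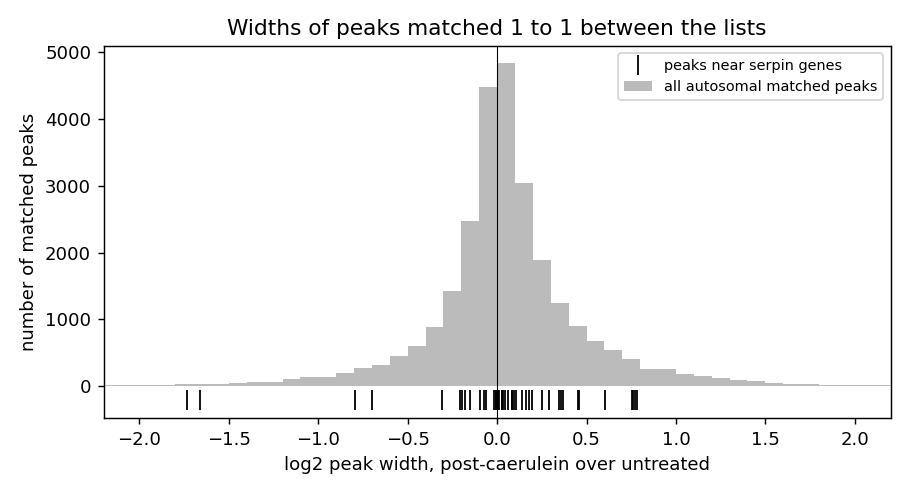
Log2 ratio of peak width, post-caerulein over untreated (x axis), for all 26529 autosomal peaks matched 1 to 1 (grey, number of peaks on the y axis) and for the 42 near serpin genes (black ticks). The ticks run from -1.73 at Serpinb6b to 0.78 at Serpine2, with most of them near 0.

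Proteases and partners of serpins were examined next. Of 41 such genes, a start was marked in both lists for 17, in the post-caerulein list alone for 1 (Casp8) and in the untreated list alone for 1 (Htra1); over all genes these shares were 54.2%, 1.84% and 1.12%. The largest differences in covered length were at Prss22, an epithelial tryptase (29.028 kb post-caerulein and 18.601 kb untreated), F3, the tissue factor gene (30.23 and 20.193 kb), and Furin, a proprotein convertase (26.157 and 16.5 kb). Tmprss2, a membrane serine protease, had 78.653 kb post-caerulein and 87.754 kb untreated. Ctsb, a lysosomal protease implicated in trypsinogen activation, had 32.373 kb post-caerulein and 39.464 kb untreated. Masp1, a protease of the lectin complement pathway, had 10.251 kb post-caerulein and 4.122 kb untreated.

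At least 2-fold longer cover post-caerulein was found at 3 of the 41 genes, Masp1 and the neighbours F11 and Klkb1, which share the same 2 peaks, against 2.84% of all genes. At least 2-fold longer cover untreated was found at 1, Ctsg, against 2.42% of all genes. The median log2 ratio of the list was 0.01. The plasminogen activator genes, which Serpinb2 inhibits and which are named after their values were seen, had 12.872 kb post-caerulein and 7.146 kb untreated at Plau, and 23.269 and 20.612 kb at Plat. The receptor gene Plaur had 25.006 kb post-caerulein and 23.599 kb untreated. Gzmb, whose product Serpinb9 inhibits, had no peak in either list.

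Inhibitors of other families were examined in the same way. A start was marked in both lists for 12 of 21 genes, near the 54.2% of all genes. In either direction 0 reached a 2-fold difference, against 2.84% of all genes post-caerulein and 2.42% untreated. The largest differences were at Timp3, a metalloproteinase inhibitor (29.273 kb post-caerulein and 35.994 kb untreated), Wfdc2 (9.468 and 15.015 kb) and Cstb, a cathepsin inhibitor (14.506 and 9.905 kb). Ambp had 17.923 kb post-caerulein and 15.534 kb untreated, Reck 6.329 and 4.311 kb, and Wfdc1 25.103 and 23.488 kb.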

How the data were processed

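H3K27ac chromatin immunoprecipitation followed by sequencing was done on 1 library per condition; the input library was not analysed here. Per the submitters' processing notes, the authors used Trimmomatic 0.38, Bowtie2 2.2.6, SAMtools and MACS 1.4 on GRCm38 (mm10). Caller options and control are not given in the sources used here. The deposited lists hold 1 row per peak with an undefined score, which is the authors' value. It served for ranks and filters inside a single list. Depth is unknown.

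The members and gene lists were chosen with earlier results of these data known. Starts come from the RefSeq promoter table (GRCm38.p6), which has 53 of 62 members and 79.6% of all genes. Otherwise either gene end was used. Peaks overlapping by at least 1 bp counted as shared (bedtools 2.31.1 gave the same numbers). Covered length was compared as the log2 ratio after adding 1 kb. Named genes were those with a list-only peak, a 2-fold difference or a start marked in 1 list, then those marked in both, and up to 6 members of each comparison list by difference in covered length. Other serpin genes with a peak were named too, after their values were seen. The values of 1 member are not reported here, though family counts include it. The overlap code was tested on simulated data. Alternatives are given in the closing section. Python 3.11.15, pandas 2.3.3 and scipy 1.17.1 were used.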

Additional observations from a re-analysis of the deposited data

How the results depend on the processing

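Of 31 alternative counts, 22 stayed within 1.5 times of the reported one. The 7 post-caerulein-only peaks became 1, the Serpinh1 peak, when only peaks at or above their list's median score were kept, and the 2 untreated-only peaks became 0. The untreated-only count was 5 with a window of 50 kb and 4 under a required cover of 50%. Shares over all peaks were not computed for these settings. Genes with 2-fold longer cover post-caerulein (1) numbered 2 with a window of 5 kb (2.72% of all genes) or a pseudocount of 0.5 kb (3.21%). Serpinb6e joined in these settings. At a fold of 1.5 they numbered 3 (Serpinb2 too, 6.02% of all genes), and with a window of 50 kb 0 (2.5%). Genes with 2-fold longer cover untreated (0) numbered 1, Serpini2, with a window of 50 kb (2.33% of all genes). For these shifts the cause was not tested. The number of serpin genes with a start marked in both lists ranged from 10 (45.7% of all genes) to 13 (54.4%). Log2 ratios of covered length kept their sign under 6 alternatives at Serpinh1, Serpine2, Serpinb1a, Serpinb6b and Serpinb9. At Serpinb9b it was negative in 2 and at Serpinb1c in 1, and at Serpinb2 and Serpinb6e it was 0 in 1. No paired analysis was possible because there is a single library on each side, which also prevents leaving one out. Depth is unknown, so how far it affects list-only peaks of low score was not tested.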
